A study of Homo sapiens with 5 samples.

Results

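The sites described here are peaks of Smad3 in BT549 cells carrying constitutively active Smad3 (caSmad3) that shared at least 1 base with a peak of IRF3 in the same cells, and whose centre lay within 1 kb of either end of a protein-coding gene (RefSeq, GRCh38). There were 1409 such sites, which is 23.3% of the 6041 Smad3 peaks of those cells. The sites were chosen by the measured positions of both peak lists and by distance to a gene end, so the overlap and what follows from it are given as a description without a test. The remaining Smad3 peaks were 592 at a gene end without IRF3, 500 shared with IRF3 away from gene ends, and 3540 away from gene ends without IRF3. On the IRF3 side, 1356 peaks of 8067 were partners of these sites, and 4847 IRF3 peaks at a gene end had no Smad3 peak.

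All samples were BT549, a cell line of basal-like breast cancer, infected with lentiviral vectors for stable expression of either caSmad3 or HA as a control. IRF3 and Smad3 of caSmad3 cells were profiled by ChIP-seq after transfection of polyI:C, an analogue of double-stranded RNA, with no TGF-beta. HA cells gave an IRF3 library after polyI:C without TGF-beta, a Smad3 library after polyI:C with TGF-beta (1 ng/ml for 1.5 h), and a Smad3 library after mock transfection with the same TGF-beta. Each of the 5 groups had 1 library, which allowed no test between conditions, and for Smad3 the effect of caSmad3 cannot be told apart from that of leaving out TGF-beta. The sources used here do not say whether the infected cells were a pool or a clone, or which promoter drove caSmad3. The lists held 6041 Smad3 and 8067 IRF3 peaks in caSmad3 cells, against 4125 IRF3, 786 Smad3 (polyI:C) and 353 Smad3 (mock) peaks in HA cells. Sequencing depth is unknown from peak lists, so a missing peak does not show missing binding, and peak width is not a measure of binding strength. Shares carry exact 95% Clopper-Pearson intervals, which cover counting error only.

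Smad3 is phosphorylated by TGF-beta receptors, enters the nucleus with Smad4 and binds short GC-rich or CAGAC elements, usually beside other transcription factors. IRF3 is phosphorylated downstream of sensors of foreign nucleic acid and binds GAAA repeats in the promoters of interferon beta and of genes of the early antiviral response. Replication-dependent histone genes lie in clusters, are transcribed in S phase and often carry CCAAT and TATA boxes, whereas ribosomal protein genes are expressed in nearly all growing cells.

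To show the DNA that these sites covered, the 250 bases before the transcript start are printed for 5 genes, each the gene with the widest shared Smad3 peak among replication-dependent histones, cytosolic ribosomal proteins, spliceosome and RNA-binding proteins, TGF-beta/Smad targets, and AP-1 and immediate early genes, provided that its promoter was in the RefSeq table and that the peak covered at least 200 of the printed bases. Sequences are from RefSeq, build GRCh38.p14, 5′ to 3′ on the strand of the gene. Capitals mark the SMAD elements CAGAC and GGCGC, the CCAAT box, the ETS element CCGGAAG, the TATA box TATAAA, the AP-1 element TGANTCA, the CRE TGACGTCA and the IRF element, which is a pair of GAAA with 2 bases between, each read on either strand.
H3C15 (chr1:149852358-149852607, plus strand): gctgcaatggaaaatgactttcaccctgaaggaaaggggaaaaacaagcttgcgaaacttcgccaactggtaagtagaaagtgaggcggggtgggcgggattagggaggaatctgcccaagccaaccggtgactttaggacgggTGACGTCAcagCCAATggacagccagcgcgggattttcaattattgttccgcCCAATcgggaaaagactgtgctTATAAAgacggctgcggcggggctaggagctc
RPS6 (chr9:19380237-19380486, minus strand): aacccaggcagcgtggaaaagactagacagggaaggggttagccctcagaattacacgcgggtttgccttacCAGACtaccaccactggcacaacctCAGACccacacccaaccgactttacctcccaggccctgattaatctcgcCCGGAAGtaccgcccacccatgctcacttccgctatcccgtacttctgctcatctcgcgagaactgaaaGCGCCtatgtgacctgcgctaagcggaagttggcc
HNRNPR (chr1:23344285-23344534, minus strand): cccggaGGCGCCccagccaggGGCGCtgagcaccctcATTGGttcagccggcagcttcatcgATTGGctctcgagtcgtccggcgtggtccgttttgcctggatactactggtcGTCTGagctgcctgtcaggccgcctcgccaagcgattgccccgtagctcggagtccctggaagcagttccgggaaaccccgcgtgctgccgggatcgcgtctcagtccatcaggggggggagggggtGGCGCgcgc
ID1 (chr20:31605039-31605288, plus strand): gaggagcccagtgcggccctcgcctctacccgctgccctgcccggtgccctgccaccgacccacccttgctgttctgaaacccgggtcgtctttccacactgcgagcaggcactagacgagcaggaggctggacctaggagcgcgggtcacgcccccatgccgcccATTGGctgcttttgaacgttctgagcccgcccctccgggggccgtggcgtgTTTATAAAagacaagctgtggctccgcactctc
IER5L (chr9:129178262-129178511, minus strand): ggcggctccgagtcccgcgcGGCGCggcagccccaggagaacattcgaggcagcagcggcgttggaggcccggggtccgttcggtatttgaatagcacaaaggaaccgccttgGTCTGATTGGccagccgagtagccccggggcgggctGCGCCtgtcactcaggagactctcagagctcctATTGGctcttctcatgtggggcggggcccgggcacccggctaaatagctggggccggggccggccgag

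The Smad3 peak covered 207 of the printed bases at H3C15, 224 at HNRNPR, and all 250 at RPS6, ID1 and IER5L. The IRF3 peak covered all 250 at H3C15, RPS6 and ID1, 221 at IER5L and 18 at HNRNPR. Of the elements counted in these windows, CCAAT was missing only from RPS6. The window of H3C15, a histone H3 gene, held 2 CCAAT boxes, 1 CRE and a TATAAA that began 32 bases before the start. RPS6, a protein of the small ribosomal subunit, had 2 CAGAC, 1 GGCGC and 1 ETS element and no TATAAA. ID1, an inhibitor of helix-loop-helix factors and a known target of Smad signalling, had 1 CCAAT box and 2 overlapping TATAAA matches. HNRNPR, an RNA-binding protein, held 1 CAGAC, 4 GGCGC and 2 CCAAT, where 2 of the GGCGC matches are the same GGCGCC read on both strands. IER5L, named for its likeness to the immediate early gene IER5, held 1 CAGAC, 2 GGCGC and 2 CCAAT. The IRF element was found in 0 of the 5 windows.

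Most of the 1409 sites paired 1 Smad3 peak with 1 IRF3 peak. There were 1353 sites with 1 IRF3 peak and 56 with 2 or more, up to 3 at STX16, a membrane-fusion protein of the Golgi. The Smad3 peak lay wholly inside the IRF3 peak at 720 sites (51.1%), held it whole at 66 (4.68%) and overlapped it in part at 623 (44.2%). Centres of both peaks were a median of 76 bases apart, and 859 pairs (61%) had them within 100 bases. Conversely, 91 IRF3 peaks overlapped 2 or more of the Smad3 peaks, and the most in 1 IRF3 peak was 6.

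At the limits of the rule, the site farthest from its gene end was at ZMYND8, a chromatin reader (989 bases), and the nearest shared peak outside the limit was at DYNLRB1, a dynein subunit (1001 bases). The site with the least overlap, at the cap-binding protein NCBP3, shared 1 base with its IRF3 peak, and 19 sites shared 10 bases or fewer. At BAD, a cell death gene of the BCL2 family, a Smad3 peak at a gene end missed an IRF3 peak by 1 base.

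The IRF3 peaks at these sites were wider than their Smad3 peaks. Smad3 peaks ranged from 99 to 1408 bases with a median of 178 (quartiles 126 and 262), the same median as all Smad3 peaks of caSmad3 cells. The best-overlapping IRF3 peak had a median of 376 bases and was the wider of the pair at 1165 sites (82.7%). Over the 1356 distinct partners the median was 348.5 bases, against 203 for the 4847 IRF3 peaks at gene ends without Smad3. A wide peak has more room to overlap another, so these widths are a description only. Sites on small structural RNA genes (median Smad3 width 747.5 bases) and at histone genes (293) stood at the wide end, as the plot of widths shows, and 119 Smad3 peaks of these sites (8.45%) were at the narrowest width in the list, 99 bases.

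**Figure D1:**
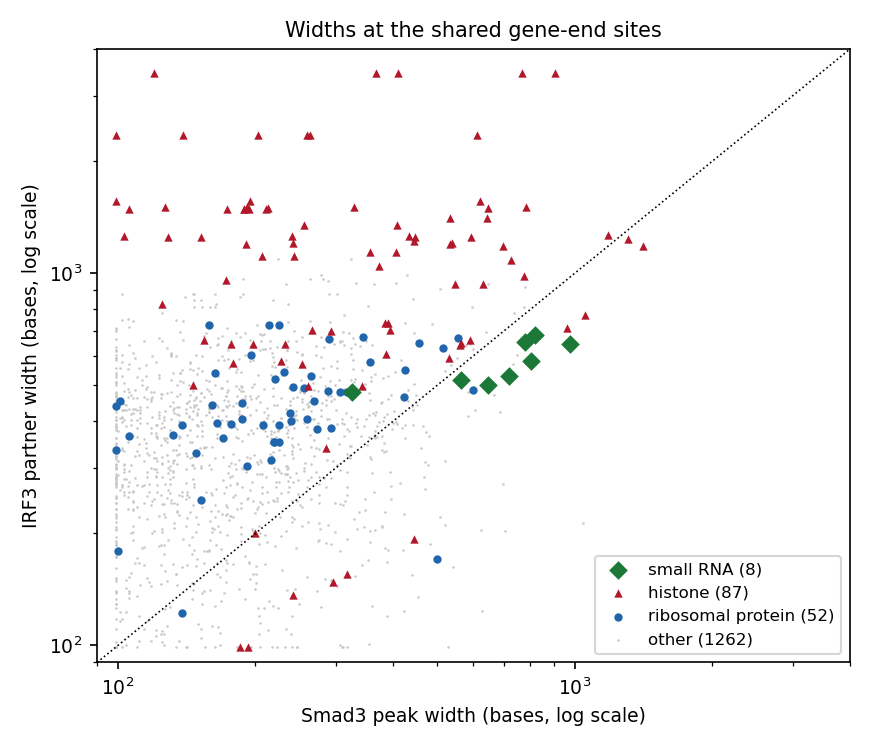
Width of the Smad3 peak (x axis, bases, log scale) against that of its best-overlapping IRF3 peak (y axis, bases, log scale) in caSmad3 cells, 1 point per site, with 8 sites on small structural RNA genes, 87 at histone genes and 52 at ribosomal protein genes marked and equal widths on the dotted line. Most points lie above the line, where the IRF3 peak was wider (1165 of 1409 sites), while 7 of the 8 small RNA points lie below it.

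Which of these sites also had peaks in HA cells was not used to choose them. An IRF3 peak of HA cells overlapped 941 of 1409 sites (66.8%, interval 64.3 to 69.2), against 21.7% of all Smad3 peaks of caSmad3 cells. The share was 4.39% (2.89 to 6.37) for the 592 Smad3 peaks at gene ends without IRF3, and 59.6% (55.2 to 63.9) for the 500 shared peaks away from gene ends. Sites hold an IRF3 peak of caSmad3 cells by the rule and the 592 peaks lack one, so a gap between these shares follows in part from the choice. Beside shared peaks elsewhere the intervals lay close together. Without histone and small RNA sites the share of the sites was 65% (62.3 to 67.6). The 500 shared peaks elsewhere were not filtered in this way, and 81 of them (16.2%) overlapped a small structural RNA gene. The 65% and 59.6% are thus not a like comparison. Seen from the HA list, 899 of 4125 IRF3 peaks (21.8%) fell on a site.

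Smad3 peaks of HA cells were seen at far fewer of the sites. After polyI:C they overlapped 116 of 1409 (8.23%, 6.85 to 9.79), against 10.8% of all Smad3 peaks of caSmad3 cells, 4.22% (2.75 to 6.17) of those at gene ends without IRF3 and 27.8% (23.9 to 32) of the shared peaks away from gene ends. After mock transfection they overlapped 36 (2.56%, 1.8 to 3.52), against 5.12%, 1.18% (0.477 to 2.42) and 19.6% (16.2 to 23.4) of the same 3 sets. On these shares the sites were below the library as a whole and below shared peaks elsewhere. They were above Smad3 peaks at gene ends without IRF3, though the intervals after mock transfection overlapped. Small structural RNA genes were overlapped by 16.2% of the shared peaks elsewhere and by 0.568% of the sites. The sets are thus not alike, and the part of small RNA genes in these shares was not tested. Of the HA lists, 123 of 786 Smad3 peaks after polyI:C (15.6%) and 38 of 353 after mock transfection (10.8%) fell on a site.

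**Figure D2:**
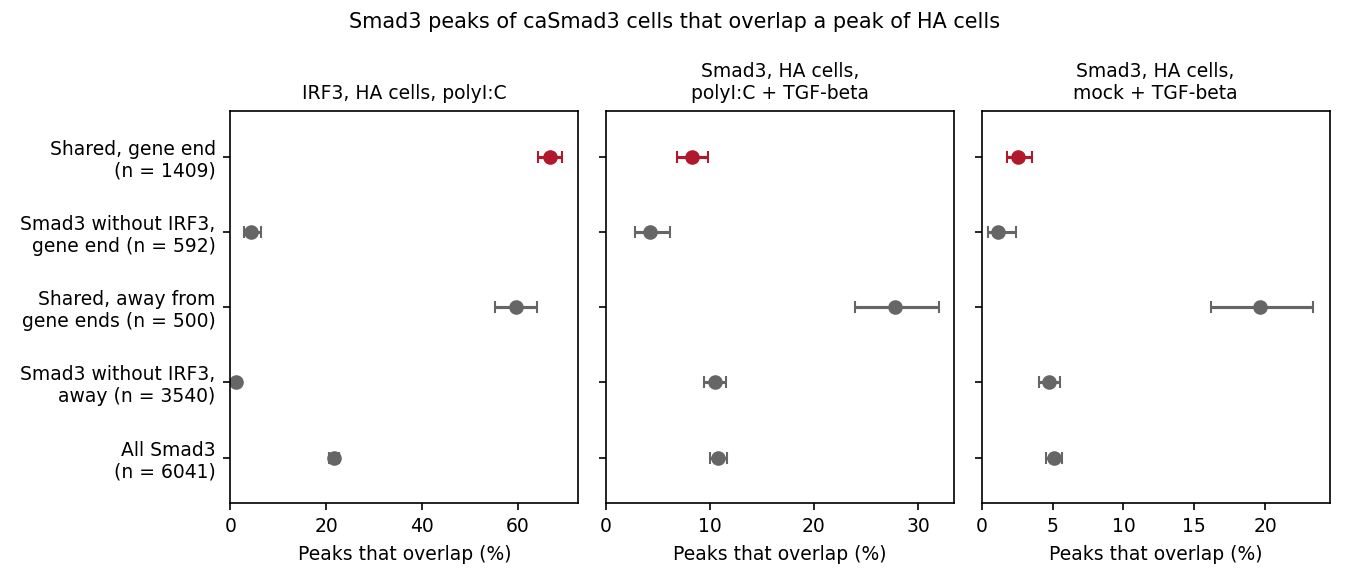
Share of Smad3 peaks of caSmad3 cells (x axes, percent, each panel on its own scale from 0) that overlapped a peak of 3 HA libraries, for the shared gene-end sites (red) and other classes of peaks (grey), with 95% intervals as bars. The sites reached 66.8% for IRF3, and 8.23% and 2.56% for Smad3 after polyI:C and after mock transfection, where shared peaks away from gene ends reached 59.6%, 27.8% and 19.6%.

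Combining the lists, 832 sites (59%) overlapped an IRF3 peak but no Smad3 peak of HA cells, 454 (32.2%) overlapped no HA peak and 77 (5.46%) overlapped IRF3 and the polyI:C Smad3 list. A further 26 (1.85%) overlapped a peak in all 3 HA lists. These groups differed in width. Smad3 peaks with an HA Smad3 peak after polyI:C had a median of 408.5 bases, against 171 for those without, and those with an HA Smad3 peak after mock transfection 535, against 174. In the widest 352 sites (262 to 1408 bases), 24.7% overlapped an HA Smad3 peak after polyI:C and 77.6% an HA IRF3 peak, and in the narrowest 353 (99 to 126 bases) 1.98% and 58.6% did.

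The IRF3 partners of the sites were found again in HA cells more often than IRF3 peaks at gene ends without Smad3. Of the 1356 partners, 927 (68.4%, 65.8 to 70.8) overlapped an IRF3 peak of HA cells, against 1761 of 4847 (36.3%, 35 to 37.7) without Smad3. Since the partners were wider, IRF3 gene-end peaks with and without Smad3 were compared within bins of width. Bins match width only roughly, and widths inside a bin can still differ. The peaks with Smad3 in the bins are the 1354 IRF3 gene-end peaks that overlap any Smad3 peak of caSmad3 cells. This set differs slightly from the 1356 partners. Among IRF3 gene-end peaks under 200 bases the shares were 22.9% (17.9 to 28.6) with Smad3 and 17.3% (15.8 to 18.9) without. From 300 to under 400 bases they were 76.8% (71.4 to 81.7) with Smad3 and 60.4% (56.7 to 64) without, and from 600 bases 97% (93.1 to 99) with Smad3 and 96.2% (89.4 to 99.2) without. The intervals did not overlap in the 3 bins between 200 and 600 bases, and they overlapped in the narrowest and the widest bin. The chance of holding a Smad3 peak itself went up over the width bins, with 9.65%, 19.4%, 27.7%, 44.1% and 67.5% of IRF3 gene-end peaks.

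**Figure D3:**
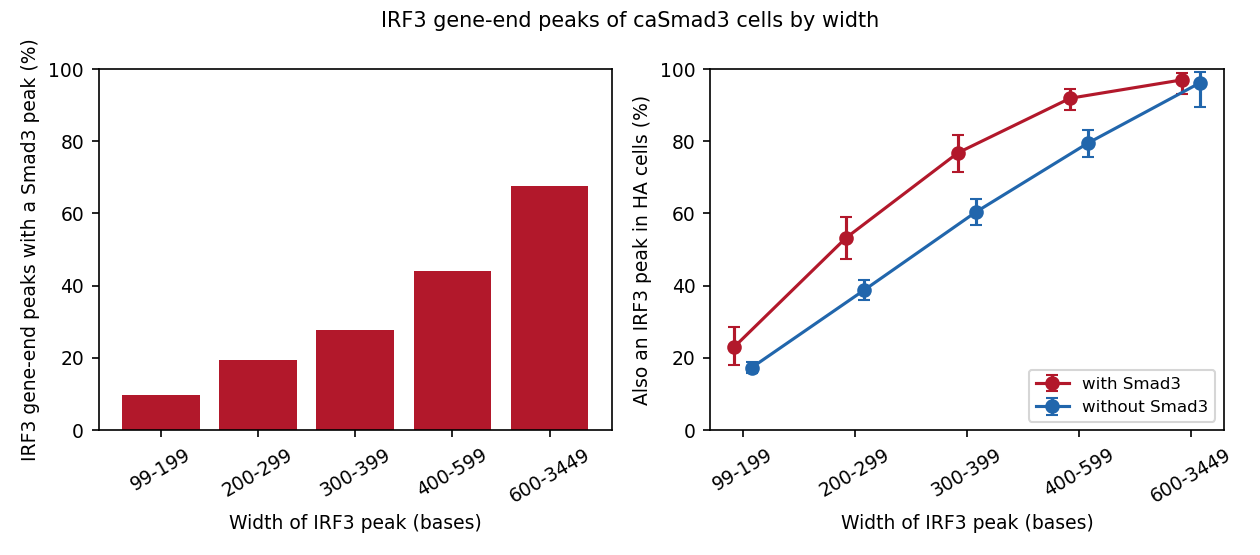
Left, share of IRF3 gene-end peaks of caSmad3 cells that held a Smad3 peak (y axis, percent) by width of the IRF3 peak (x axis, bases), which ran between 9.65% and 67.5%. Right, share that overlapped an IRF3 peak of HA cells (y axis, percent, 95% intervals) for peaks with Smad3 (red) and without (blue), the red points lying above the blue in all 5 bins and by the least in the widest.

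Although the rule allowed either end of a gene, the sites lay at gene starts. Strand came from the RefSeq promoter table, which covers 15841 of 20033 protein-coding genes. The start was the lower end of a plus-strand gene and the upper end of a minus-strand gene. For 1198 sites with a stranded gene, the nearest end was a start at 1132 (94.5%, 93 to 95.7), against 79.8% (76.1 to 83.3) of the Smad3 peaks without IRF3 and 97.9% (97.4 to 98.3) of the IRF3 peaks without Smad3. By position, 1055 sites had only starts within 1 kb, 122 had a start and another end, 21 had only the other end and 211 had no stranded gene. Smad3 centres at starts had a median offset of 0 bases (quartiles -109 and 121, n = 1177), and their IRF3 partners 9 bases (-91 and 96). Both were centred on the start, with 75.4% of Smad3 and 77.8% of IRF3 centres within 250 bases of it, whereas only 53.9% of the Smad3 peaks without IRF3 were that close (n = 421, median -42). Starts on both strands within 1 kb, as at paired genes read in opposite directions, were present at 215 sites (15.3%, 13.4 to 17.2), against 9.8% (7.52 to 12.5) of Smad3 peaks without IRF3 and 15% (14 to 16.1) of IRF3 peaks without Smad3.

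**Figure D4:**
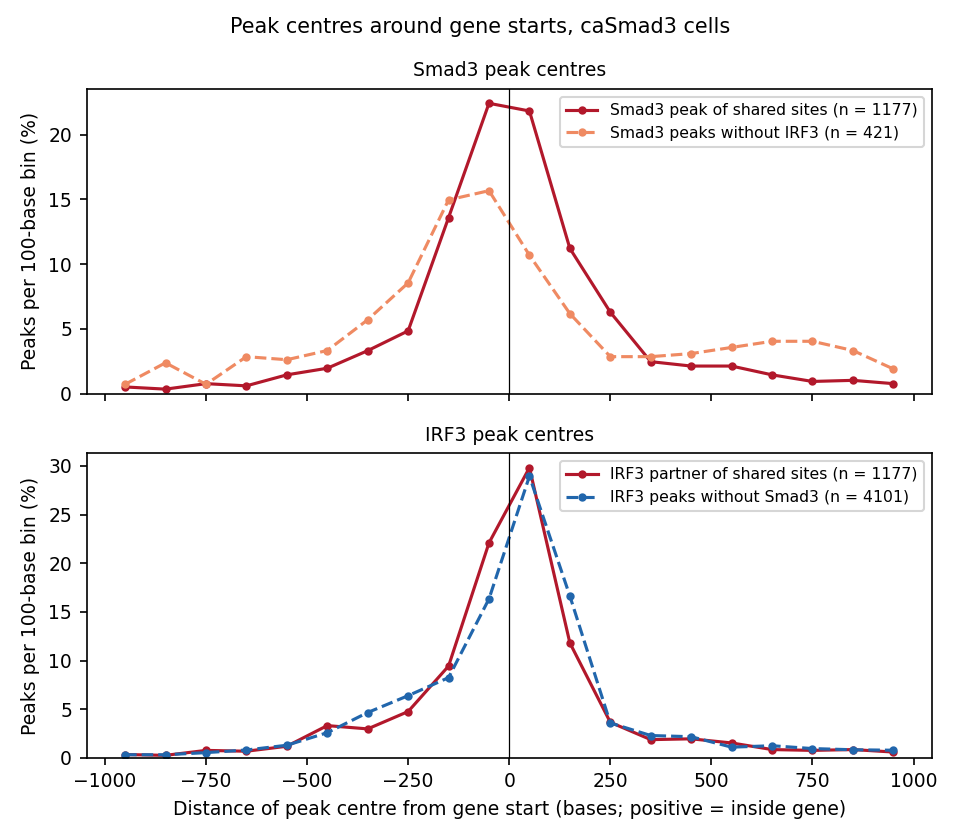
Distance of peak centres from the gene start (x axis, bases, positive inside the gene) as the percent of peaks per 100-base bin (y axis), for Smad3 (upper) and IRF3 (lower) in caSmad3 cells, at the shared sites (solid) and at peaks of the same antibody without the other factor (dashed). Smad3 centres of the sites gather at the start (75.4% within 250 bases) and those without IRF3 are spread more widely (53.9%).

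In all, 1551 of 20033 protein-coding genes (7.74%) had a site within 1 kb of an end, where 10.4% had any Smad3 peak and 30.9% any IRF3 peak of caSmad3 cells. These 3 shares are the background for every list below. Of the genes with an IRF3 peak at an end, 25.1% had a site. Of the genes with a site, 1367 had 1 and 145 had 2. Most of them, 1191 (76.8%), were on none of the 31 lists counted here. The share was above that of all genes for 22 lists, as the plot of gene lists shows, but neighbouring genes can share a site, and no test was made over lists.

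**Figure D5:**
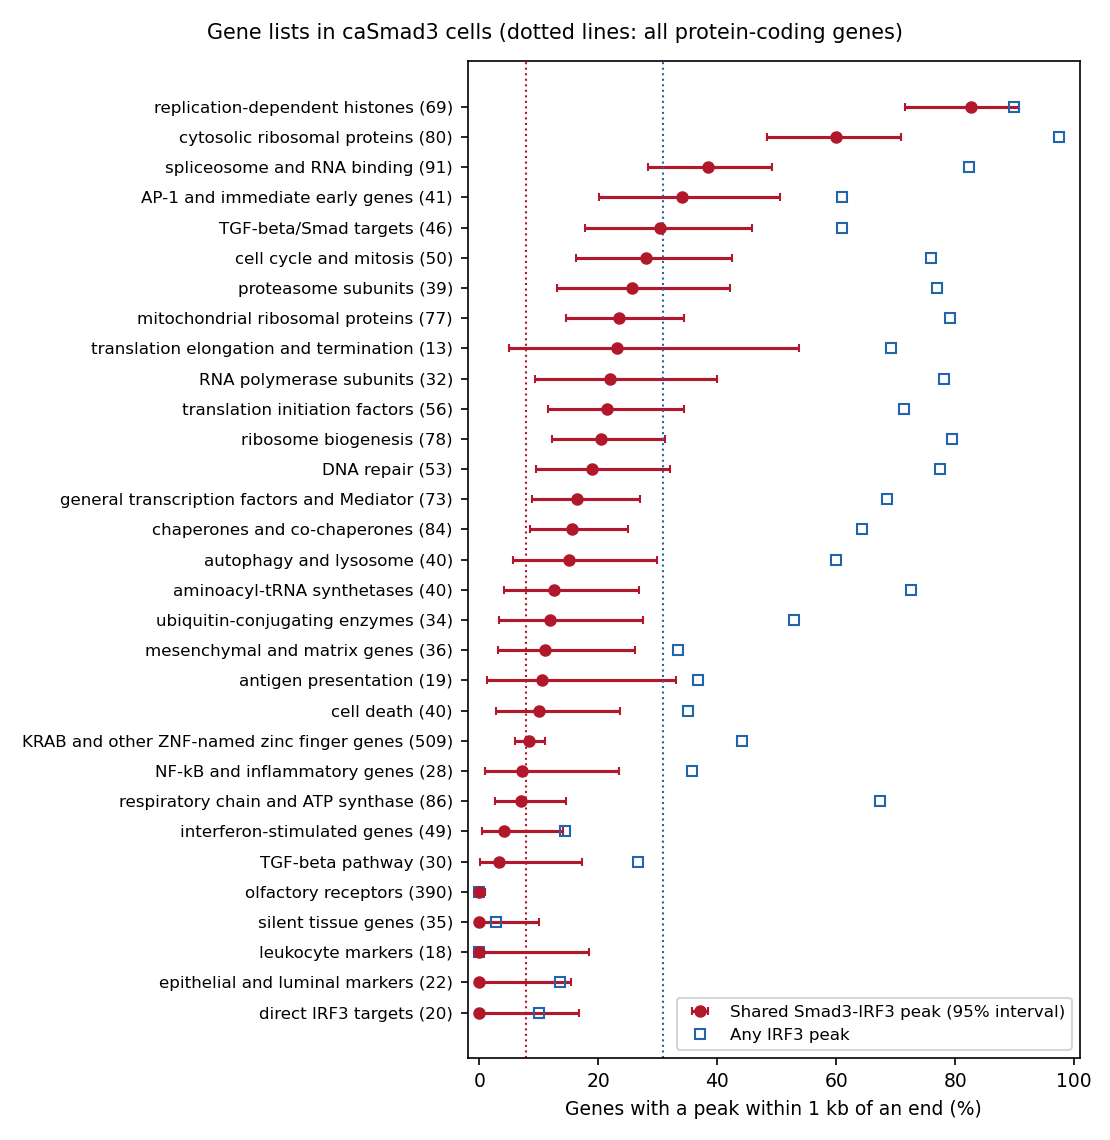
Share of the genes of each list (x axis, percent) with a shared site (red, 95% interval) or with any IRF3 peak (blue squares) within 1 kb of an end in caSmad3 cells, the lists ordered down the page by the red value with their number of genes in brackets and dotted lines at 7.74% and 30.9% for all genes. Histones (82.6%) and cytosolic ribosomal proteins (60%) stand at the top, and direct IRF3 targets, epithelial, leukocyte, silent tissue and olfactory receptor genes are at 0.

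Replication-dependent histone genes had the highest share. A site lay at 57 of 69 (82.6%, 71.6 to 90.7), and at all 57 a site also overlapped an IRF3 peak of HA cells. Every histone class took part, with 5 of 6 H1, 16 of 17 H2A, 15 of 18 H2B, 11 of 13 H3 and 10 of 15 H4 genes. On chromosome 1 all 13 genes had a site, and on chromosome 6, which holds the largest cluster, 43 of 55 did. Of those without one, H1-6, H2AC1, H2BC1, H3C6, H4C6, H4C7 and H4C9 had neither a Smad3 nor an IRF3 peak at an end. H2BC6, H2BC10, H3C8, H4C4 and H4C13 had an IRF3 peak alone. The 87 histone sites had a median Smad3 width of 293 bases, against 178 for all sites. IRF3 of HA cells overlapped 79 of the 87 (90.8%), Smad3 of HA cells 30 after polyI:C (34.5%, 24.6 to 45.4) and 5 after mock transfection (5.75%, 1.89 to 12.9).

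The widest sites of all were at histone genes, which are short, so a single peak often spanned the whole gene. At H3C15, an H3 gene of the chromosome 1 cluster, the Smad3 peak of caSmad3 cells ran from 149852401 to 149853808 (1408 bases) over a gene placed at 149852608 to 149853125. Its IRF3 peak had 1184 bases in caSmad3 cells and 1099 in HA cells, and its Smad3 peak in HA cells had 127 bases after polyI:C, with none listed after mock transfection. H1-2, a linker histone on chromosome 6, had a Smad3 peak of 1310 bases in caSmad3 cells (26055238 to 26056547) and of 128 in HA cells after polyI:C, and IRF3 peaks of 1235 and 1119 bases in caSmad3 and HA cells. H2AC19 (1184 bases), H4C11 (1051), H4C12 (962) and H3C14 (906) followed the same pattern, each of these widest sites with an HA Smad3 peak of 107 to 194 bases after polyI:C and none listed after mock transfection. A narrower site at H3C14 (410 bases) had HA Smad3 peaks of 193 bases after polyI:C and 134 after mock transfection. The most sites at 1 gene were 7, at the neighbours H2AC11 and H2BC11. Histone genes are nearly identical copies, and how reads matching several of them were placed is not given in the sources used here, so which copy a peak belongs to is uncertain.

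Ribosomal proteins of the cytosol came next, with a site at 48 of 80 genes (60%, 48.4 to 70.8), 29 of 46 of the large and 19 of 32 of the small subunit. IRF3 peaks of caSmad3 cells lay at 78 of the 80. Of their 52 sites 49 were IRF3 peaks of HA cells too (94.2%, 84.1 to 98.8), against 66.8% of all sites. Neither this share nor the 90.8% of histone sites was compared at like width. Among all IRF3 gene-end peaks with Smad3, the share rose with width, with 22.9% under 200 bases and 91.9% from 400 to under 600 bases. Smad3 peaks of HA cells overlapped 4 after polyI:C (7.69%, 2.14 to 18.5) and 2 after mock transfection (3.85%, 0.469 to 13.2), near the 8.23% and 2.56% of all sites. RPL23, of the large subunit, had a Smad3 peak of 600 bases and IRF3 peaks of 485 bases in caSmad3 and 547 in HA cells. RPS6 had Smad3 peaks of 555 bases in caSmad3 cells, 431 in HA cells after polyI:C and 135 in HA cells after mock transfection, and IRF3 peaks of 668 bases in caSmad3 and 518 in HA cells, so it was present in all libraries. RPL15 (514 bases) had no Smad3 peak listed in HA cells. At RPL41 (500 bases) the site lay at the other end of the gene, 92 bases from it, with an HA Smad3 peak of 123 bases after polyI:C.

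Other genes of RNA and protein production had sites at lower shares. Of 91 spliceosome and RNA-binding genes 35 had a site (38.5%, 28.4 to 49.2), the widest at RBM39 (686 bases), HNRNPH3 (589), SRSF2 (450) and SRSF6 (429), all regulators of splicing. RBM39 and SRSF2 also had an HA Smad3 peak after polyI:C (195 and 99 bases), and all 4 an HA IRF3 peak. Mitochondrial ribosomal proteins had sites at 18 of 77 genes (23.4%) and proteasome subunits at 10 of 39 (25.6%), led by PSMB3 (422 bases) and PSMD11 (388). Translation initiation factors had them at 12 of 56 (21.4%), with EIF4A2, an RNA helicase of the initiation complex, at 777 bases, and EIF4A1, which shares its site with SENP3, at 604. RNA polymerase subunits had them at 7 of 32 (21.9%; 4 without peaks of the narrowest width), led by POLR2A (597 bases), the largest subunit of RNA polymerase II, and ribosome biogenesis genes at 16 of 78 (20.5%). These lists all had IRF3 peaks at 71.4% to 82.4% of their genes, against 30.9% of all genes. Of their genes with an IRF3 peak, 46.7% had a site on the spliceosome and RNA-binding list, against 25.1% of all genes with one. On the other lists this share lay nearer to that of all genes, from 25.8% (ribosome biogenesis) to 33.3% (proteasome subunits). Of the translation elongation and termination genes 3 of 13 had a site, EEF1A1 (347 bases), EEF1D (129) and EEF2 (103), of general transcription factor and Mediator genes 12 of 73 (16.4%) and of chaperones and co-chaperones 13 of 84 (15.5%), among them the chaperonin subunit TCP1 (318 bases). Autophagy and lysosome genes had sites at 6 of 40 (15%, 5.71 to 29.8), aminoacyl-tRNA synthetases at 5 of 40 (12.5%, 4.19 to 26.8) and ubiquitin-conjugating enzymes at 4 of 34 (11.8%, 3.3 to 27.5). These 3 intervals, and that of the elongation and termination genes (5.04 to 53.8), include the 7.74% of all genes. From elongation to ubiquitin-conjugating genes, the share with a site among genes with an IRF3 peak ran from 17.2% (synthetases) to 33.3% (elongation), against 25.1% of all. Respiratory chain and ATP synthase genes had IRF3 peaks at 67.4% but sites at only 6 of 86 (6.98%, 2.6 to 14.6), near the background of 7.74%.

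Among genes of cell division, 14 of 50 cell cycle and mitosis genes had a site (28%, 16.2 to 42.5), with CKS2 (391 bases), a partner of cyclin-dependent kinases, the pocket protein RBL1 (391), the replication licensing factor CDC6 (382) and the mitotic kinase AURKA (340) the widest. MCL1, which protects from cell death, had 3 sites, the widest of 441 bases with an HA Smad3 peak of 159 after polyI:C, and 3 other cell death genes of 40 had 1 (AIFM1, BCL2L1 and BCL2L2, at 99 to 148 bases). The share of cell death genes with a site was thus 10% (2.79 to 23.7), an interval that includes the 7.74% of all genes. Of the cell death genes with an IRF3 peak 28.6% had a site, against 25.1% of all. DNA repair genes had sites at 10 of 53 (18.9%), ATR, a checkpoint kinase, having the widest (471 bases). Of the genes with an IRF3 peak, 36.8% on the cell cycle and mitosis list and 24.4% on the DNA repair list had a site, against 25.1% of all. Zinc finger genes named ZNF had them at 42 of 509 (8.25%, 6.01 to 11), close to the share of all genes.

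Targets of TGF-beta and Smad signalling had a site at 14 of 46 genes (30.4%, 17.7 to 45.8), with IRF3 peaks of HA cells at 11 of the 14 and Smad3 peaks of HA cells after polyI:C at 4. In caSmad3 cells 39.1% of the list had any Smad3 peak and 60.9% any IRF3 peak, against 10.4% and 30.9% of all genes. Of the genes with a Smad3 peak 77.8% had a site, near the 74.4% of all such genes. Of those with an IRF3 peak 50% had a site, against 25.1% of all such genes. ID1 had 3 sites. The one at its start (31604929 to 31605569, chromosome 20) had Smad3 peaks of 641 bases in caSmad3 cells, 105 in HA cells after polyI:C and 109 in HA cells after mock transfection, and IRF3 peaks of 694 bases in caSmad3 and 462 in HA cells. CCN1, a secreted matricellular protein, also had 3, of 733, 323 and 224 bases, of which the widest lay 565 bases beyond the upper end of the gene and had no HA IRF3 peak. Its relative CCN2, a standard target of Smad3, had 3 sites of 483, 354 and 237 bases, and none of them overlapped any HA peak. GADD45B, a stress sensor, had Smad3 peaks of 552 bases in caSmad3 cells and 317 in HA cells after polyI:C. ID2 (172 bases), ID3 (207), SNAI1 (172), a repressor of E-cadherin, and CDKN2B (153), a cell cycle inhibitor, had narrower sites with an IRF3 peak of HA cells each. Those of FN1 and LMCD1 were at the narrowest width of 99 bases and matched no HA peak. GADD45A (361 bases), MYC (342) and PLAUR (236) completed the list with JUNB. Several of the known targets had IRF3 without Smad3 at an end, 12 in all, among them SKIL, SKI and KLF10, and LTBP3 and PMEPA1 had Smad3 without IRF3.

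AP-1 and immediate early genes, which respond within minutes to growth factors and stress, had a site at 14 of 41 (34.1%, 20.1 to 50.6). In caSmad3 cells 43.9% of the list had any Smad3 peak and 61% any IRF3 peak, against 10.4% and 30.9% of all genes. A site was present at 77.8% of the genes with a Smad3 peak, near the 74.4% of all such genes. It was present at 56% of those with an IRF3 peak, against 25.1% of all such genes. JUN, a subunit of AP-1, had sites of 747, 253 and 153 bases around its start. The sites of 747 and 253 bases shared an IRF3 peak of 602 bases in caSmad3 cells. Both also overlapped an IRF3 peak of 594 bases in HA cells and a Smad3 peak of 264 bases in HA cells after polyI:C. The site of 153 bases matched no HA peak. JUNB, another subunit, which was counted among the TGF-beta/Smad targets, had 3 as well (520, 173 and 119 bases), the widest beyond its other end with an HA Smad3 peak of 267 bases after polyI:C. IER5L had Smad3 peaks of 579 bases in caSmad3 cells, 142 in HA cells after polyI:C and 99 in HA cells after mock transfection. FOS, the partner of JUN, had sites of 148 and 124 bases, and IER3 one of 313, each gene with an HA Smad3 peak after polyI:C (206 and 164 bases). The phosphatases DUSP1 (372 bases), DUSP6 (233), DUSP4 (203) and DUSP5 (182), which switch off MAP kinases, all had a site, and none of them a Smad3 peak in HA cells. KLF6 (227), BTG1 (217) and IER5 (115 and 102) had an IRF3 peak of HA cells, as did FOSL1 (99), whereas JUND (198) and ZFP36L2 (99) had no HA peak.

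Lists of the antiviral response, for which IRF3 is best known, had few sites, and all their intervals or limits include the 7.74% of all genes. Of 20 direct IRF3 targets 0 had a site, which allows a share of up to 15%, and of these ISG15 and PMAIP1 had an IRF3 peak of caSmad3 cells without Smad3. Interferon-stimulated genes had a site at 2 of 49 (4.08%, 0.498 to 14). Among these was TRIM25, a ubiquitin ligase of the RIG-I pathway, with a Smad3 peak of 112 bases, and IRF3 peaks of 428 bases in caSmad3 and 496 in HA cells. IRF1, IRF2, PLSCR1, SOCS1 and SOCS3 had IRF3 alone. A site needs an IRF3 peak, and these lay at 10% of the direct targets and 14.3% of the interferon-stimulated genes, against 30.9% of all genes. They lay at 35.7% of the NF-kB and inflammatory genes and 36.8% of the antigen presentation genes. Of the 7 interferon-stimulated genes with an IRF3 peak 28.6% had a site, against 25.1% of all genes with one. Among NF-kB and inflammatory genes 2 of 28 had a site (7.14%, 0.877 to 23.5), CXCL1, a chemokine (156 bases), and NFKBIB, an inhibitor of NF-kB (274 bases, of which 7 shared with IRF3), and among antigen presentation genes 2 of 19 (10.5%, 1.3 to 33.1), the chaperones TAPBP and CALR.

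Components of the TGF-beta pathway itself had a site at 1 of 30 genes (3.33%, 0.0844 to 17.2), the inhibitory SMAD6 (102 bases, no HA peak). ACVR2A, BAMBI, BMPR1A, MAP3K7, SMAD4 and SMAD5 had IRF3 without Smad3, and SMURF2 had both without overlap. Mesenchymal and matrix genes had sites at 4 of 36 (11.1%, 3.11 to 26.1), ITGB1 (337 bases), LOXL2 (158), THBS1 (158) and COL5A1 (99). Marker lists of other cell types and tissues held no site, with 0 of 22 epithelial and luminal markers (a share of up to 13.6% is allowed), 0 of 18 leukocyte markers (up to 16.7%), 0 of 35 silent tissue genes (up to 8.57%) and 0 of 390 olfactory receptors (up to 0.769%). Only the last of these limits is below the 7.74% of all genes.

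Of the 26 sites found in every list, 7 lay on a small structural RNA gene and 5 at histone genes, against 8 and 87 of all 1409 sites. The 26 had a median Smad3 width of 581.5 bases, against 178 for all sites. A wide peak has more room to overlap others, and the part of width in these counts was not tested. Small structural RNA genes encode, among others, the RNAs of splicing and of RNA modification. They were overlapped by only 8 of the 1409 sites (0.568%, 0.245 to 1.12), against 1.54% of all Smad3 peaks of caSmad3 cells and 16.2% (13.1 to 19.7) of shared peaks away from gene ends, and 7 of those 8 were in every list. The site at WDR74 (chromosome 11, 62841023 to 62842000) covered RNU2-2, a gene of the U2 spliceosomal RNA. It had Smad3 peaks of 978 bases in caSmad3 cells, 675 in HA cells after polyI:C and 491 in HA cells after mock transfection, and IRF3 peaks of 647 bases in caSmad3 and 692 in HA cells. At TAF12, the site on RNU11 of the minor spliceosome had Smad3 peaks of 817, 799 and 700 bases in the same order of libraries, and at TMEM107 the site on the small nucleolar RNA SNORD118 had 804, 819 and 688. Widths at these 3 RNA genes, which had the widest of the 8 sites, thus varied less between Smad3 libraries than at the widest histone sites above. Sites on RNU12, RNU4-2, SNORD13 and RNU7-1 were in every list as well. In the same order of libraries, RNU12 had 778, 685 and 442 bases, and RNU4-2 had 717, 622 and 381. SNORD13 had 646, 417 and 183 bases, and RNU7-1 had 565, 539 and 224. The site on SNORD74 (325 bases) had no HA Smad3 peak.

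The other 14 sites in every list included those of EIF4A2, ID1, IER5L and RPS6 described above, and SYNC, CCDC80 and ZNFX1. The site at SYNC, which encodes a filament protein of muscle (chromosome 1, 32703243 to 32704287), was the widest outside histones, with Smad3 peaks of 1045 bases in caSmad3 cells, 230 in HA cells after polyI:C and 255 in HA cells after mock transfection. Its IRF3 peaks were much narrower, at 213 bases in caSmad3 and 114 in HA cells. CCDC80, a secreted matrix protein, had Smad3 peaks of 584, 301 and 268 bases in the same 3 libraries, and IRF3 peaks of 413 bases in caSmad3 and 351 in HA cells. TOB2, TRIB1, CFAP20, OGA, MANBAL and CLTC had narrower sites, of 285 bases at CLTC to 444 at TOB2. Without the histone and small RNA sites, 6.01% (4.79 to 7.44) of the other 1314 overlapped an HA Smad3 peak after polyI:C, against 8.23% of all sites, and 65% (62.3 to 67.6) an HA IRF3 peak.

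Promoters of 1236 genes with a site at the start were searched for 15 motifs on both strands, over 250 bases before and 50 after the start, beside 15841 promoters of all genes, 232 of genes with Smad3 but no IRF3 peak and 3681 with IRF3 but no Smad3. The median GC content was 63.3% at genes with a site, against 62.7%, 63.3% and 65% in the other 3 sets, and the median number of CpG 26, against 22, 23 and 27. The lower quartile differed more, with 20 CpG and 58% GC at genes with a site, against 8 CpG and 54% GC in all promoters, so the set of all promoters held more that are poor in CpG. The part of this in the motif shares was not tested. The SMAD element CAGAC was in 42.8% (40 to 45.6) of promoters with a site, against 44.1% of all, 40.1% with Smad3 alone and 42.7% with IRF3 alone, and the palindrome GTCTAGAC in 0.162%, against 0.221% of all. The IRF element was in 1.86% (1.18 to 2.78), against 3.18%, 2.59% and 2.93%, and the AP-1 element TGANTCA in 4.21% (3.16 to 5.48), against 5.75%, 7.76% and 3.26%. In this window, none of these elements was more frequent at the sites than in promoters at large.

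Elements rich in G and C, and CCAAT, were more frequent than in all promoters. The SMAD element GGCGC was in 77.9% (75.5 to 80.2) of promoters with a site, against 62.6% of all, 68.5% with Smad3 alone and 80.5% with IRF3 alone, and GGCCG in 72.7%, against 61.2%, 63.8% and 75.1%. The ETS element CCGGAAG was in 26.5% (24.1 to 29.1), against 14.2%, 18.1% and 26.8%, so its share at the sites was close to that of promoters with IRF3 alone. CCAAT was in 43.2% (40.4 to 46), against 36.4%, 35.8% and 39.3%, and the GC box GGGCGG in 67.4%, against 58.5%, 60.8% and 73.1%. The NRF1 element was in 11% (9.31 to 12.9), against 8.57% of all and 3.88% with Smad3 alone, and 18.6% with IRF3 alone. The CRE was in 4.53%, against 2.59% of all, 2.59% with Smad3 alone and 4.4% with IRF3 alone, and the YY1 element in 4.13%, against 1.93%, 3.88% and 3.91%. The E-box CACGTG was in 11.6%, against 8.88%, 12.5% and 10.4%, the ZNF143 element ACTACAA in 3.8%, against 3.14%, 4.74% and 5.11%, and TATAAA in 9.3%, against 9.63%, 5.6% and 4.37%. For these last elements the order of the sets differed with the set compared. In the 100 bases before the start alone, the difference from all promoters in percentage points was 7.37 for GGCGC, against 15.3 in the full window, 3.91 for GGCCG, against 11.4, and 2.72 for the GC box, against 8.89. It was 7.87 for CCGGAAG, against 12.3, 0.686 for the CRE, against 1.94, and 0.228 for the YY1 element, against 2.19, whereas for CCAAT it was 8.3, against 6.85. Several of these strings can overlap one another, such as GGCGC and the GC box. A match is a run of letters and not a bound site.

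The lists behind the sites differed in these letters. Of 52 histone promoters with a site 44 held CCAAT (84.6%), 35 TATAAA (67.3%) and 9 TGACGTCA (17.3%), as in the H3C15 window printed above. Of 36 ribosomal protein promoters 12 held CCGGAAG (33.3%) and 5 TATAAA (13.9%). Among spliceosome and RNA-binding genes 11 of 31 held CCGGAAG (35.5%), and among TGF-beta/Smad targets 0 of 10 did, while 7 of those 10 held CCAAT and 4 TATAAA.

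Sites were unevenly spread over chromosomes. The share of protein-coding genes with a site was highest on chromosome 20 (19.7%), 9 (16.7%) and 14 (15.5%), and, leaving out Y with 0 of 63 genes, lowest on 21 (0.837%), 11 (2.92%) and 18 (2.96%). IRF3 peaks lay at the ends of 40.6%, 39.3% and 42% of genes on chromosomes 20, 9 and 14, and of 19.2%, 22.4% and 27.8% on 21, 11 and 18, and Smad3 peaks at 24.8%, 20.7% and 20%, and at 1.67%, 4.84% and 4.07%. These chromosomes were picked by the share of sites, which needs both peaks.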

How the data were processed

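ChIP-seq libraries of IRF3 and Smad3 were made from BT549 cells with 10 micrograms of antibody and, per the labels' protocols, 15 PCR cycles. Per the submitters' processing notes, the build was hg38 and the tools were Bowtie2 (version 2.2.2.6) and MACS2 (version 2.1.0). Not given in the sources used here are peak thresholds, input controls and how duplicates were handled. The deposited files give 1 peak list per library, with positions in bases (chromosome, start, end and name), and no score, count or p-value.

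Starts were moved to 1-based positions. Peaks were called shared if they had 1 base or more in common, and gene ends came from RefSeq, GRCh38.p14 (20033 protein-coding genes). Strands came from the RefSeq promoter table for 15841 of these. For nearest ends and offsets, the start was the gene end that the strand marks as the start. Promoter windows for motifs and printed sequences were placed by the start in the promoter table. That start equals the gene end for 83.8% of the genes in the promoter table. Sites at genes not in that table were left out of offsets and motif shares, and peaks were not searched for motifs. Python 3.11.15 with pandas 2.3.3, numpy 2.4.6 and scipy 1.17.1 was used, and overlaps were tested on simulated data and against bedtools 2.31.1. No test was made, since each group had 1 library. PCR reads are not independent molecules, which the intervals leave out. The limit for a count of 0 is the share that 3 counts would make. Named genes are those of the 10 widest sites, the 10 widest in every list, the 5 widest in the HA polyI:C Smad3 list, the sites nearest the limits, the sites and genes with most peaks, up to 4 genes of each list, and every gene of 5 lists on interferon, IRF3, TGF-beta and immediate early genes. TOB2, TRIB1, CFAP20, OGA, MANBAL, CLTC, CCDC80, ZNFX1, HNRNPR (by the rule printed with its sequence), histone genes without a site and small RNA sites outside that rule were chosen after their values were seen. The sites, the 31 gene lists and the 15 motifs were chosen with earlier results of these data known. Some genes that the naming rule covers are not reported here. Of the listed gene names 1 did not match the table. Alternatives covered the bases shared, the window, the genes that define an end, peak width, chromosomes, and the promoter set and window.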

Additional observations from a re-analysis of the deposited data

How the results depend on the processing

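Asking for 50% of the shorter peak to be shared gave 63.7% of sites with an HA IRF3 peak, against 66.8%. Asking for 50% of both peaks left 479 sites, against 1409, at 577 genes, against 1551, of which 131 were on a list, against 360. Their share with an HA IRF3 peak was 49.5%, that with an HA Smad3 peak after polyI:C 4.8%, and that nearest to a start 95.9%. With the wider 50% of each list there were 599 sites at 686 genes, 194 of them on a list, with a median Smad3 width of 263 bases and 92.5% nearest to a start. These settings keep fewer or wider peaks by construction. Ends of genes of every biotype raised the shares with an HA Smad3 peak to 12.5% after polyI:C and 6.38% after mock transfection, and the cause was not tested. Leaving out histone and small RNA sites, a choice made after seeing the data, gave 6.01% after polyI:C. The other 63 values moved by less than their interval or by less than 1.5 times. List counts moved by more than 1.5 times for 25 lists with 50% of both peaks, for 22 with the wider peaks, for 1 with 50% of the shorter peak, for 1 without the narrowest peaks and for 6 without chromosomes 3, 8, 9 and 20. No paired analysis was possible because each group had 1 library with no replicate number, and no replicate could be left out. Depth limits all statements on missing peaks, as it is unknown.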

Other observations

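Long noncoding RNA genes, which often start beside protein-coding genes, were overlapped by 231 of the 1409 sites (16.4%, 14.5 to 18.4), against 18.9% (15.8 to 22.3) of the Smad3 peaks at gene ends without IRF3, 16.2% (15.1 to 17.2) of the IRF3 peaks at gene ends without Smad3 and 20% (19 to 21) of all Smad3 peaks of caSmad3 cells. MicroRNA genes were overlapped by 5 sites (0.355%, 0.115 to 0.826), against 0.265% of all Smad3 peaks of caSmad3 cells. Transfer RNA genes were overlapped by 0 of the 1409 sites, which allows a share of up to 0.213%, against 3 of all 6041 Smad3 peaks. Whether any of these RNAs is expressed in BT549 cells was not measured.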
